A study of Mus musculus with 12 samples.

Results

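Immunoglobulin variable (V) segments were examined in the duodenum of mice treated with corticosterone (CORT) or vehicle (Veh). Members were the rows of the duodenum expression table whose gene name begins with Ighv, Igkv or Iglv and whose mean over the 6 duodenum libraries reached 1 TPM (an abundance corrected for transcript length and scaled to a fixed total within each library). This gave 187 of the 346 V rows among 55416 genes: 91 of 183 Ighv, 93 of 160 Igkv and 3 of 3 Iglv. Of the other V rows, 136 were at 0 in every library and 23 were above 0 with a mean under 1 TPM. The selection used the mean over all libraries and not the treatment, but the segments were proposed for study with earlier results of these data known. Male C57BL6/J mice, 8 weeks old at the start, were given CORT, the main glucocorticoid of rodents, at 40 mg/kg, or the vehicle without it, as a subcutaneous injection every day for 8 weeks. Both groups received the DMSO, Tween-80 and water of the vehicle. Each group gave 3 duodenum libraries, named here Veh1 to Veh3 and CORT1 to CORT3, from 50 mg of tissue each.

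An antibody chain is made from separate gene segments. In a developing B cell 1 V segment of the heavy chain locus (Ighv) is joined to D and J segments, and 1 V segment of a light chain locus (kappa, Igkv, or lambda, Iglv) is joined to a J segment, so a B cell clone carries 1 such combination in all its descendants. The V segment codes for most of the part that binds antigen, and the constant segment (Igha for IgA, Ighm for IgM, Igkc for kappa) sets the class of the chain. The gut wall is rich in plasma cells, the antibody factories that B cells become, and most of them make IgA, which the epithelium carries into the lumen.

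The end of the V segment that meets the junction shows how the members relate. For the heavy chain, the last 90 bases of the germline V exon are printed for the segments that led a library (Ighv1-53, Ighv1-19, Ighv1-72 and Ighv14-3), for a close relative of the first (Ighv1-55) and for a distant one that fell (Ighv11-2). Capitals mark the codon of the conserved cysteine shortly before the junction.
Ighv1-53: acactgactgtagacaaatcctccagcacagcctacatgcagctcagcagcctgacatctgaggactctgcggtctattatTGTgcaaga
Ighv1-55: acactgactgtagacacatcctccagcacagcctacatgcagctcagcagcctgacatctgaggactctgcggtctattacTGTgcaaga
Ighv1-19: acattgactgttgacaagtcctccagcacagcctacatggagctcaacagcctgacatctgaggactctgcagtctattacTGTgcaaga
Ighv1-72: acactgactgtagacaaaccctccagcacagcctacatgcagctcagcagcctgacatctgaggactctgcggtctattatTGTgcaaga
Ighv14-3: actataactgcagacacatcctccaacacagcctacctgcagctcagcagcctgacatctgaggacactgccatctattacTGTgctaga
Ighv11-2: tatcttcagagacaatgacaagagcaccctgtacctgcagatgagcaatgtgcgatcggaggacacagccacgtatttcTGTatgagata

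For the light chains, the 3 kappa segments with the highest mean level, Igkv6-32, which led 1 library, and the lambda pair Iglv1 and Iglv2 are printed in the same way.
Igkv10-96: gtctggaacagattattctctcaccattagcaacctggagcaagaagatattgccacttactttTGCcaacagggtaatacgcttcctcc
Igkv1-117: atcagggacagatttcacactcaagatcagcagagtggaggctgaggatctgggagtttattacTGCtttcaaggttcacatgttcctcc
Igkv1-110: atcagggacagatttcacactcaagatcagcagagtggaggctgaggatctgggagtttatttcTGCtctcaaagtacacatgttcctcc
Igkv6-32: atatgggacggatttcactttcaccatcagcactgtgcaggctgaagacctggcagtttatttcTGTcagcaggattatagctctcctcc
Iglv1: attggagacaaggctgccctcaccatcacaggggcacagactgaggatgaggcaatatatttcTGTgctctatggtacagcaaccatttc
Iglv2: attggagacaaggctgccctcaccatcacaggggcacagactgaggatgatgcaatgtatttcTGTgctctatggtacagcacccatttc

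All 187 members were matched by gene identifier to GENCODE transcripts of GRCm38, in which the Ighv members lie on chromosome 12, the Igkv members on chromosome 6 and the Iglv members on chromosome 16. The codon was located as the last 3 bases of the letters TANTNNTGN, read on the coding strand only, and these letters were in the last 90 bases of the V exon of 183 of the 187 members (97.9%) and in the last 90 bases of 9.21% of 139864 mouse transcripts. The codon stands 9 bases from the end in the first 5 heavy chain segments and 26 bases from the end in the kappa segments, which carry more of the junction loop themselves. Over the last 300 bases of the exon, Ighv1-53 was identical to Ighv1-72 at 96.0% of positions and Ighv1-55 to Ighv1-72 at 94.7%, but Ighv1-53 to Ighv11-2 at 59.2%. Igkv1-110 and Igkv1-117 were 96.7% identical, and Iglv1 and Iglv2 97.3%. Of the 187 members, 104 had another V row at least 95% identical to them and 15 had one at least 98% identical, while Ighv1-62-2 and Ighv1-71 were identical to each other. Reads of such segments can be split between them by the quantification, so the values of single segments are less certain than their sums.

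The libraries held TPM sums of 993160 to 997319 over all genes, and 19466 to 20446 genes were above 0. TPM keeps no record of read numbers, so no counting interval is given and the precision rests on the spread among 3 libraries per group. The p-values weigh the group difference against that spread, which the fit below draws for each gene toward a trend over all genes tested. Genes whose mean reached 1 TPM in Veh or in CORT (13607, all 187 members among them) were compared as log2(TPM + 1) with limma. A gene was called when its Benjamini-Hochberg adjusted p did not exceed 0.05 and its fold was above 1.5, which held for 2.15% of all genes in either direction. The glucocorticoid response genes Fkbp5, Tsc22d3 and Zbtb16 were called higher in CORT. The duodenal transcription factor Pdx1 (8.13 to 41.9 TPM) and the intestinal factor Cdx2 (59.7 to 91.6 TPM) were present in all 6 libraries. A list of 27 pancreatic acinar genes took 3.93% of the TPM of Veh2 and 3.08% of that of Veh3, but 0.0260% in Veh1 and 0.0306% to 0.0538% in the CORT libraries.

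V segment rows took a large part of the duodenal TPM, and their sum was lower in every CORT library than in every Veh library. TPM is corrected for length and the member transcripts are short (median 359 bases), so a share of TPM is not a share of RNA mass. Together the V rows held 3.35%, 4.60% and 4.43% of all TPM in Veh1, Veh2 and Veh3, and 1.46%, 2.17% and 1.32% in CORT1, CORT2 and CORT3. The 187 members summed to 41145 ± 6769 TPM (SD, n = 3) in Veh and 16395 ± 4476 TPM in CORT, a ratio of the means of 2.51. The lowest Veh library held 1.55 times the sum of the highest CORT library. No test is given for a sum over members chosen with results known. In bulk tissue, fewer plasma cells and less antibody RNA per cell cannot be told apart.

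Ighv and Igkv were lower by similar ratios, and Iglv by a larger one. Ighv summed to 11754, 16369.8 and 15602 TPM in the Veh libraries and to 5253, 7861 and 4717 TPM in the CORT libraries, a ratio of 2.45 between the group means. Igkv, the main light chain of mice, summed to 20725, 27906 and 27127 TPM against 8891, 13282 and 8266 TPM, a ratio of 2.49. Heavy and kappa V transcripts thus moved in step, and the Ighv to Igkv ratio stayed between 0.567 and 0.592 in all 6 libraries. Iglv summed to 911, 1592 and 1447 TPM against 373, 361 and 179.8 TPM, a ratio of 4.32. Lambda V transcripts were 4.21%, 5.40% and 5.06% of light chain V transcripts in Veh and 4.02%, 2.65% and 2.13% in CORT. The groups did not overlap in this share, but CORT1 lay close to Veh1.

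**Figure D1:**
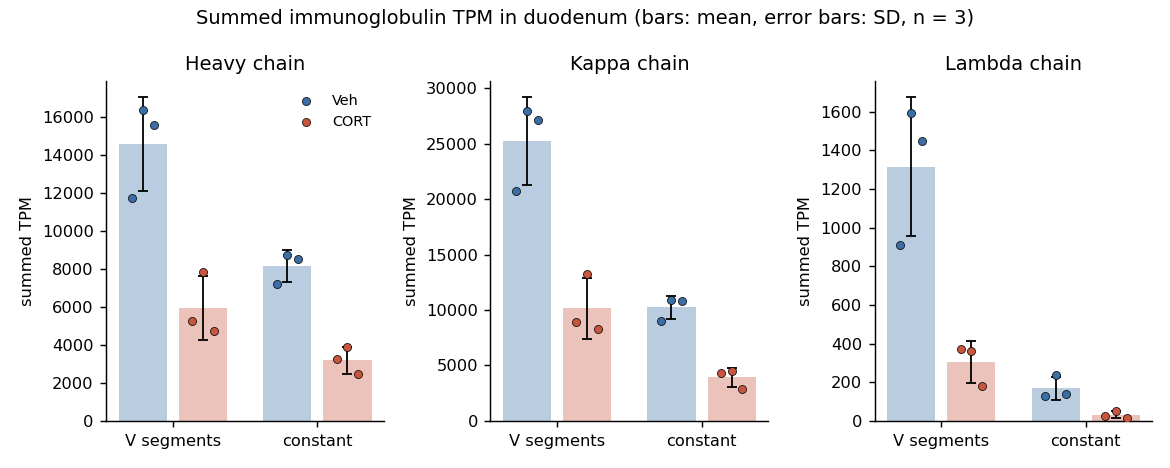
Summed TPM of the V segment members and of the constant segments of the heavy, kappa and lambda chains in duodenum, by group (bars, mean; error bars, SD, n = 3; points, libraries; linear axes from 0). In each of the 6 pairs every CORT point lies below every Veh point, with ratios of the means from 2.45 for Ighv to 5.25 for the lambda constant segments. The lambda constant values are uncertain, as their sum is far below that of the lambda V segments on the same transcripts.

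The constant segments, which lie on the same transcripts, gave the same order of libraries between groups. Igha was at 7143, 8683 and 8467 TPM in Veh and at 3217, 3738 and 2425 TPM in CORT. Its log2 fold change was -1.39 (limma adjusted p = 0.0272). Igkc was at 9003, 10904 and 10802 TPM in Veh and at 4342, 4529 and 2905 TPM in CORT, and fell by 1.40 (limma adjusted p = 0.0302). These calls depended on single libraries: Igha was no longer called without Veh2, Veh3, CORT1 or CORT3, and among the 6 fits with 1 library omitted Igkc was called only without Veh1. The ratio of V to constant TPM was 1.78 ± 0.129 (SD, n = 3) in Veh and 1.85 ± 0.207 in CORT for the heavy chain, and 2.46 ± 0.137 and 2.61 ± 0.488 for kappa. The libraries of the groups overlapped in both ratios. For lambda the ratio was 8.01 ± 2.09 in Veh and 10.4 ± 3.56 in CORT, again with overlap. V and constant parts lie on the same transcripts, so ratios above 1 mean that their rows were not measured on the same scale. This was most marked for lambda, and the lambda constant values are therefore uncertain.

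IgA held nearly all heavy chain constant RNA. The share of Igha was 99.2%, 99.5% and 99.3% in Veh and 99.2%, 96.1% and 98.4% in CORT. In CORT2, Ighm of the IgM class stood at 87.7 TPM and 2.25% of heavy constant TPM, where the other 5 libraries held 15.2 to 26.7 TPM. Ighd, the class borne by resting B cells, was at 7.36 TPM in CORT2 and between 0.03 and 1.01 TPM elsewhere. CORT2 therefore stood apart in antibody class, and results below that rest on it are given with that library named. Ighg1, Ighg2b, Ighg2c and Ighg3 of the IgG classes overlapped between the groups, with means from 1.39 to 17.5 TPM in Veh and from 2.63 to 15.01 TPM in CORT. Of the lambda constant segments, Iglc2 was at 80.5, 238 and 139 TPM in Veh and 18.7, 52.8 and 15.1 TPM in CORT without passing (limma adjusted p = 0.0746), and Iglc1 and Iglc3 overlapped and were at 0 in some libraries of both groups.

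Across single members, 28 of 187 (14.97%) were called lower in CORT, against 0.919% of all genes tested, and 0 were called higher, against 1.23%. The 28 were 12 Ighv, 15 Igkv and 1 Iglv. At an unadjusted p of 0.05 or less with the same fold change, 108 members were lower and 0 higher, against 5.36% and 4.89% of all genes. All 3 CORT values lay below all 3 Veh values for 84 members (44.9%, against 14.3% of all genes tested), and above them for 1 member (against 12.2%). The log2 fold change was below 0 for 172 of the 187 members and for 51.5% of all genes. Its median was -1.58 over the members (quartiles -2.26 and -0.89) and -0.01 over all genes tested. The median was -1.57 for Ighv and -1.58 for Igkv.

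A member can reach 1 TPM through the Veh group alone, and 15 members had a mean under 1 TPM in CORT while none had one in Veh. Among the 172 members whose mean reached 1 TPM in Veh and in CORT alike, a limit added after the data were seen, 25 were called lower, and the median log2 fold change was again -1.58. By level, 13 of 72 members with a mean of at least 100 TPM were called, 14 of 82 from 10 to 100 TPM, and 1 of 33 from 1 to 10 TPM. The lower calls were thus spread over well and moderately used segments. In all, 155 members were above 0 in all 6 libraries, and 5 were at 0 in all 3 CORT libraries while none was at 0 in all 3 Veh libraries. At the limit itself, the last member was Igkv12-38, at 3.43, 1.18 and 1.54 TPM in Veh and 0 in the CORT libraries. The first row outside was Ighv12-3, at 3.25, 2.71 and 0 TPM in Veh and 0 in the CORT libraries.

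**Figure D2:**
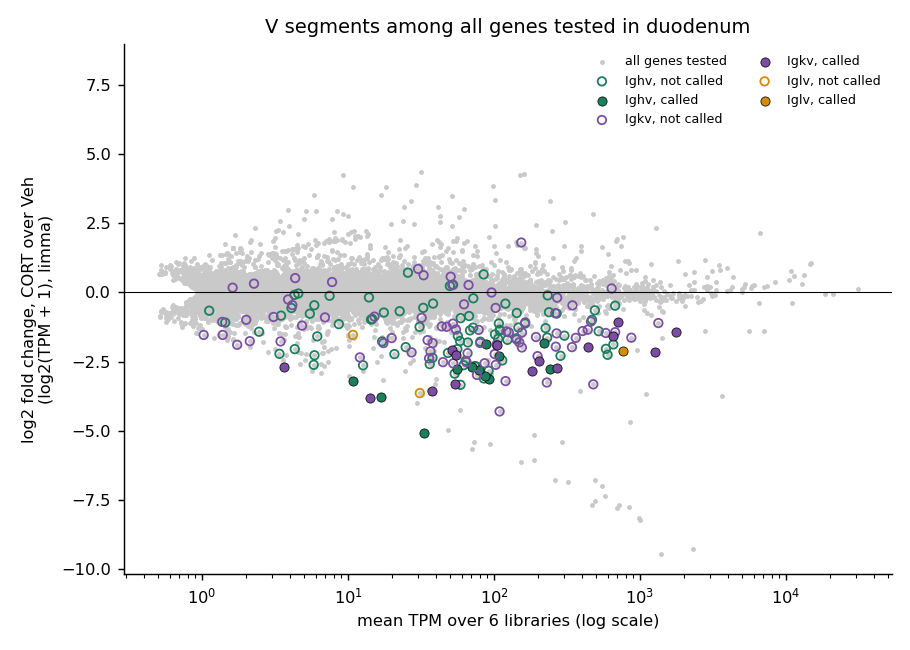
Log2 fold change (CORT over Veh, limma on log2(TPM + 1)) against the mean TPM of the 6 duodenum libraries on a log scale, for all 13607 genes tested (grey) and the V segments by locus (open, not called; filled, called). Of the V segments 172 lie below the line at 0 and 15 above it, and all 28 filled points are below it.

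The smallest adjusted p-values were in segments with means from 51.4 to 648 TPM. Ighv1-18, a member of the large Ighv1 family, was at 127, 208 and 164 TPM in Veh and at 22.6, 21.0 and 11.4 TPM in CORT. It fell by 3.14 on the log2 scale (standard error 0.29, limma adjusted p = 0.00621), and the lowest Veh value was far above the highest CORT value. Ighv1-42 of the same family was at 153, 228 and 85.1 TPM against 17.2, 19.1 and 14.7 TPM, and fell by 3.01 (limma adjusted p = 0.0124). Among kappa segments, Igkv1-135 was at 826, 569 and 729.6 TPM against 149, 182 and 198 TPM (log2 fold change -1.99, limma adjusted p = 0.00621). Igkv3-2 was at 1016, 885 and 1012 TPM against 299.5, 386 and 291 TPM (-1.58, limma adjusted p = 0.00789). These kappa values were close within each group, so a smaller fold passed than for the heavy segments. Igkv9-124 and Igkv4-57-1 fell by 2.07 and 2.27, from means of 83.5 and 91.5 TPM in Veh to 19.2 and 17.7 TPM in CORT. These 6 segments were called whichever library was omitted from the fit.

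The other segments among the 12 with the smallest adjusted p lost their call when certain libraries were left out. Igkv8-27 was at 261, 366 and 411 TPM in Veh and 74.0, 72.1 and 40.2 TPM in CORT, and its call was lost without Veh3. Igkv6-17 showed the smallest fold of the 28, at 866, 1011 and 971 TPM against 478, 439 and 454 TPM, and was lost without Veh2, Veh3 or CORT3. The CORT values of Igkv6-17 lay within a narrow band, and all were below the Veh values. Ighv9-3 was at 341, 299 and 636 TPM against 77.6, 41.4 and 62.1 TPM, and was lost without CORT2 or CORT3. Ighv11-2 was at 29.0, 15.2 and 16.2 TPM against 0.54, 3.04 and 0.70 TPM, and was called only without Veh1 or CORT2 among these fits. Its sequence differs most from the other heavy chain segments printed, and its nearest relative, Ighv11-1, was 98.7% identical and no member. Ighv10-3 was at 154, 135 and 121 TPM against 11.1, 34.1 and 16.2 TPM, and was lost without Veh2, Veh3 or CORT3. Igkv14-130 was at 48.7, 19.5 and 14.1 TPM in Veh and at 0, 0.65 and 2.33 TPM in CORT, and was called in 2 of the 6 fits. Of the 28 called segments, 13 were called in at most 1 of those fits, and 30 further members were called in at least 1 of them.

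**Figure D3:**
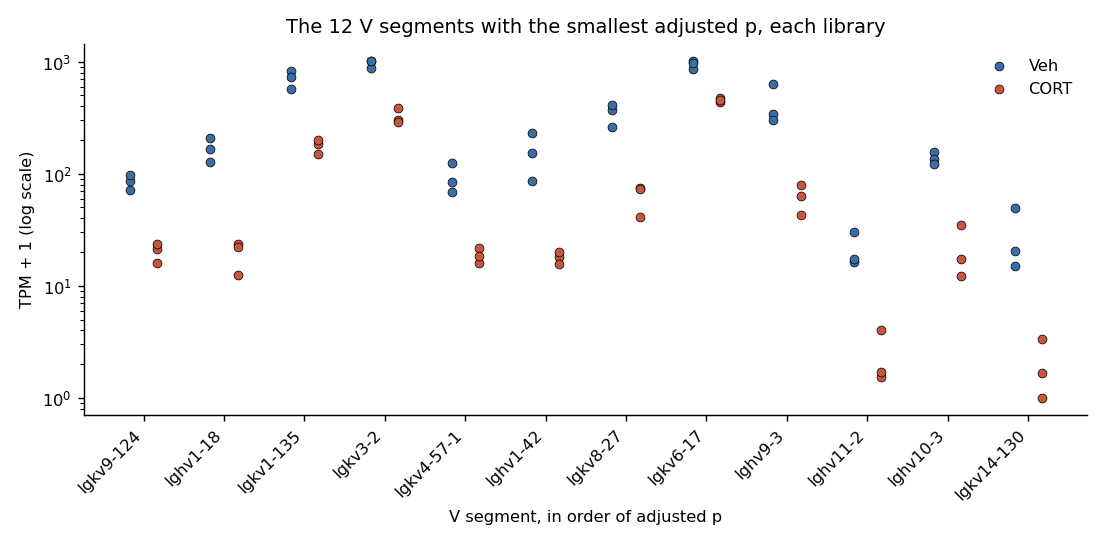
TPM + 1 on a log axis in each duodenum library (points) for the 12 V segments with the smallest adjusted p in limma, in that order. For each segment the 3 CORT points lie below the 3 Veh points.

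The most used segments did not all follow. Igkv10-96, the member with the highest mean and number 71 of all genes by mean TPM, was at 2274, 2755 and 2636 TPM in Veh and at 647, 1334 and 987 TPM in CORT. Its log2 fold change was -1.42 with no overlap (limma adjusted p = 0.0492), and among the 6 fits with 1 library omitted the call was kept only without CORT2. Igkv1-110 was at 1311, 2356 and 2582 TPM against 539.7, 325 and 520.1 TPM (log2 fold change -2.15, limma adjusted p = 0.0272), and its call was kept only without Veh1. Its near copy Igkv1-117 was at 1071, 1614 and 2795 TPM against 609, 1317 and 601 TPM, where CORT2 lay above Veh1, and did not pass (limma adjusted p = 0.225). Reads shared between these segments can tie their values together. Igkv4-59 (limma adjusted p = 0.198) overlapped too, and Igkv3-12 did not overlap but did not pass (limma adjusted p = 0.0704).

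None of the 6 most used heavy segments was called. Ighv1-53 was at 513, 1989 and 560.2 TPM in Veh and 173, 232 and 129 TPM in CORT, and Ighv1-55 at 495, 1705 and 675 TPM and 252, 241 and 133 TPM. Both stood highest in Veh2, and no group overlapped the other. The log2 fold changes were -2.26 and -2.04 (limma adjusted p = 0.0830 and 0.0840). Ighv1-72 was at 699, 1139 and 1207 TPM against 159.6, 486 and 246 TPM, and Ighv1-34 at 689, 826 and 696 TPM against 219, 498 and 194 TPM. Both were below in every CORT library, and both passed once CORT2 was left out. Ighv1-19 was at 920 (Veh1), 564 and 700.2 TPM in Veh and at 445, 1164 and 258 TPM in CORT, and Ighv1-26 at 694, 340.4 and 576 TPM against 198, 945 and 188 TPM. For both the CORT2 value was the highest of all 6 libraries and the other CORT values were below all Veh values.

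The lambda segments followed the sum. Iglv1 was at 872, 1466 and 1398 TPM in Veh and at 367, 332 and 178 TPM in CORT, and fell by 2.12 (standard error 0.33, limma adjusted p = 0.0305). Among the 6 fits with 1 library omitted its call was kept only without Veh1. Iglv2 was at 24.8, 104 and 36.5 TPM against 1.65, 18.7 and 0 TPM, and Iglv3 at 13.9, 21.6 and 12.4 TPM against 3.89, 10.7 and 2.25 TPM. Neither passed, although no CORT value reached a Veh value. Iglv1 made up 91.9% to 98.7% of Iglv transcripts in the 6 libraries, so the lambda sum is in effect the level of that segment.

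Against this direction, 15 members had a log2 fold change above 0, and none of them passed. Igkv14-100, named here after its values were seen, was the only member above in every CORT library. It was at 72.1, 43.4 and 29.7 TPM in Veh and at 610 (CORT1), 92.9 and 73.6 TPM in CORT (limma adjusted p = 0.269), with most of the difference in CORT1. Igkv6-32 was at 326, 942 and 275 TPM in Veh and at 275, 1787 and 232 TPM in CORT. Its log2 fold change of 0.15 was -0.79 without CORT2. Ighv14-3 was at 218, 244 and 195 TPM in Veh and 339, 74.8 and 327 TPM in CORT, where CORT2 was the lowest of all 6 libraries and the other CORT libraries were the highest. Its log2 fold change of -0.11 was 0.61 without CORT2.

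Relative usage, the share of a segment in the TPM of its locus, differed less between the groups than the levels did. For 162 of the 187 members the shares overlapped. The share was below in every CORT library for 21 members (11.2%) and above for 4 (2.14%). In level, 14.3% of all genes tested lay below and 12.2% above in every CORT library, and neither percentage of shares exceeded these. Those are levels and not shares, and they include genes called between the groups. They are therefore only a loose measure for the shares. The 21 included Ighv1-18 (1.08%, 1.27% and 1.05% of Ighv in Veh against 0.431%, 0.268% and 0.243% in CORT), Ighv1-42, Ighv9-3, Ighv10-3, Ighv11-2, Igkv1-110, Igkv8-27, Igkv9-124 and Igkv4-57-1. Igkv10-96, in contrast, overlapped in share and held 10.97%, 9.87% and 9.72% of Igkv in Veh and 7.28%, 10.04% and 11.9% in CORT. Ighv1-53 was below as well, at 4.36%, 12.2% and 3.59% against 3.29%, 2.95% and 2.73%. The 4 members with a higher share, named here after their values were seen, were Ighv3-3, Igkv5-48, Igkv14-100 and Igkv4-86.

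The leading segment changed from library to library. Among heavy segments Ighv1-19 led Veh1 with 7.82%, Ighv1-53 led Veh2 with 12.2% and Ighv1-72 led Veh3 with 7.74%. In the CORT group Ighv1-19 led CORT1 with 8.48% and CORT2 with 14.8%, and Ighv14-3 led CORT3 with 6.93%. Among kappa segments Igkv10-96 led Veh1, Veh2, CORT1 and CORT3 with 10.97%, 9.87%, 7.28% and 11.9%. Igkv1-117 led Veh3 with 10.3%, and Igkv6-32 led CORT2 with 13.5%.

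**Figure D4:**
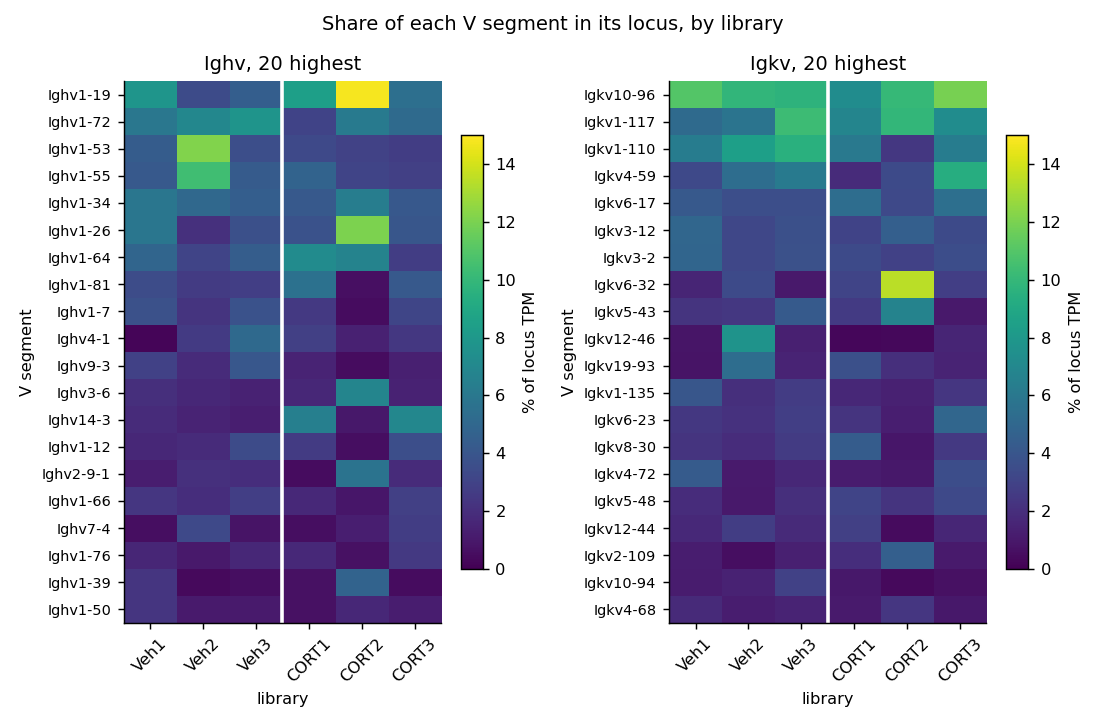
Share of each V segment in the TPM of its locus (colour, percent) in the 6 duodenum libraries, for the 20 Ighv and the 20 Igkv members with the highest mean. Single bright cells mark segments high in 1 library, such as Ighv1-53 in Veh2 (12.2%), Ighv1-19 in CORT2 (14.8%) and Igkv6-32 in CORT2 (13.5%).

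A segment was counted as high in 1 library when its share there was at least 2% and at least 3 times the next highest share. This held for 9 segments, which were chosen by these values. CORT2 held 4 of them, among them Igkv6-32 at 13.5% against 3.37% in the next library and Ighv3-6 at 6.83% against 1.99%. CORT1 held Igkv14-100 at 6.86% against 0.890% and Ighv14-1 at 6.49% against 1.32%. Veh2 held Igkv12-46 at 7.68% against 1.53%, which is 2144 TPM where the other libraries held 22.1 to 354 TPM. Veh3 held Ighv8-12 at 2.60% and Ighv2-6 at 2.02%. Segments high in 1 library thus occurred in both groups.

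The number of segments in use was measured as the effective number, the count of equally used segments that would give the same Shannon entropy. For Ighv it was 44.6, 38.8 and 46.4 in Veh and 37.2, 26.9 and 47.1 in CORT, with means of 43.3 ± 4.01 (SD, n = 3) and 37.1 ± 10.1. CORT3 was the most even and CORT2 the least even library, so the groups overlapped. For Igkv it was 41.4, 36.5 and 35.2 in Veh and 38.2, 29.7 and 32.5 in CORT, also with overlap. In CORT2, 6 Ighv segments held 50% of the locus, against 9 to 13 in the other libraries, and the 10 most used held 69.4%, against 42.7% to 53.3%. The number of Ighv members above 0 was 89 to 91 in Veh and 83 to 85 in CORT, and of Igkv members 89 to 91 and 83 to 86. A segment is more easily at 0 where its locus is lower, and the part of the lower level in these numbers was not tested.

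**Figure D5:**
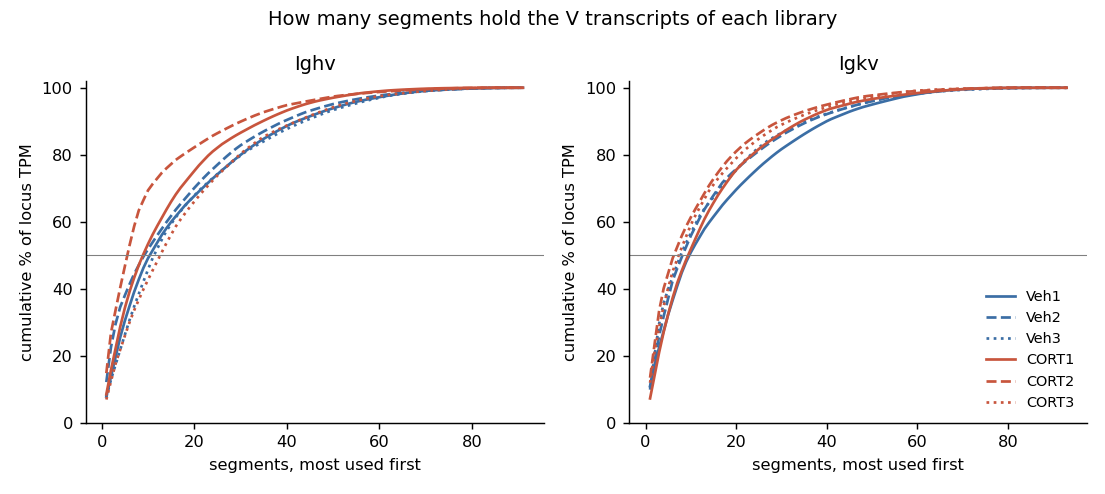
Cumulative share of locus TPM (percent) held by the V segments of each library, taken from the most used down, for Ighv and Igkv members (blue, Veh; red, CORT; line style, library number). The steepest Ighv curve is CORT2, where 6 segments reach 50%, and the flattest is CORT3, where 13 do.

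The likeness of usage between libraries depended on CORT2 for Ighv, and for Igkv only in part. The shared usage of a pair of libraries, the sum over segments of the lower of both shares, was 69.1% to 75.8% for Ighv within Veh, 54.9% to 69.4% within CORT and 55.2% to 69.0% between the groups. For Igkv it was 72.5% to 78.1%, 59.3% to 68.1% and 61.0% to 76.5%. The lowest values within CORT came from the pairs with CORT2 (56.1% and 54.9% for Ighv, 59.3% and 59.7% for Igkv). CORT1 and CORT3 shared 69.4% of Ighv usage, more than Veh1 and Veh2 (69.1%) and than the 6 pairs across the groups without CORT2 (60.1% to 69.0%). For Igkv they shared 68.1%, less than those 6 pairs (69.6% to 76.5%) and less than every pair within Veh. Each range rests on 3 pairs within a group and 9 between groups that reuse the same 6 libraries, and no test is given.

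Segments are grouped in families by sequence. Ighv1, with 45 members the largest heavy chain family, held 68.2% ± 5.65 (SD, n = 3) of Ighv in Veh and 65.3% ± 5.67 in CORT, a difference within the spread. Its sum was 8664, 11217 and 9738 TPM in Veh and 3239, 5646 and 2943 TPM in CORT. The summed TPM was below in every CORT library for 6 of 14 Ighv families, 10 of 18 Igkv families and the 3 Iglv families. This held for 38.5% of single Ighv members, 49.5% of Igkv members and 14.3% of all genes tested. Several families hold 1 member, so the family counts repeat those of the members. The share of Ighv10 was 2.54%, 2.44% and 1.62% in Veh and 0.960%, 0.698% and 1.38% in CORT, so that this family with its 2 members, and Ighv11 with its 1, were below in every CORT library in share too. Among kappa families the share of Igkv7, with 1 member, was below as well, at 0.0141%, 0.0316% and 0.0356% in Veh and 0.00562%, 0 and 0 in CORT. Igkv6 went the other way, at 11.998%, 12.2% and 9.71% of Igkv in Veh and 14.4%, 21.2% and 14.8% in CORT. Ighv14 showed how libraries of the same group can part: it held 13.1% of Ighv in CORT1 and 8.38% in CORT3 but 1.26% in CORT2, and 1.51% to 2.44% in Veh.

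Genes of the cells that make, receive or carry antibodies were read from fixed lists. Of 20 plasma cell genes, 2 were called lower, against 0.919% of all genes, and 0 higher, against 1.23%, and the median log2 fold change was -0.55. Those lower were Tnfrsf17, the BCMA receptor of plasma cells, at 4.78 ± 0.305 TPM (SD, n = 3) in Veh and 1.40 ± 0.451 TPM in CORT (limma adjusted p = 0.0267), and Sdc1, the surface marker CD138, which epithelium also makes, at 37.8 ± 1.35 and 22.5 ± 2.95 TPM (limma adjusted p = 0.0462). Jchain, which links IgA into dimers, was at 785, 965 and 883 TPM in Veh and 281, 488 and 212 TPM in CORT, with no overlap (limma adjusted p = 0.0568). Ell2, a transcription elongation factor that plasma cells use (named after its values were seen), was above in every CORT library without passing, at 10.99, 9.75 and 11.4 TPM in Veh and 19.2, 30.4 and 16.8 TPM in CORT (limma adjusted p = 0.0847). The summed list was 1351 to 1558 TPM in Veh and 580 to 953 TPM in CORT. Of 10 tested genes of IgA transport, homing and survival, 1 was called lower: Ccr10, the homing receptor of IgA plasma cells, at 3.50, 3.50 and 3.32 TPM in Veh and 0.77, 1.55 and 0.74 TPM in CORT (limma adjusted p = 0.0397). Pigr, the epithelial receptor that carries IgA into the lumen, was below in every CORT library without passing (limma adjusted p = 0.160). With any 1 library left out, Tnfrsf17 and Ccr10 were each called in 1 of 6 fits and Sdc1 in 0 of 6.

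Genes of B cells before the plasma cell stage overlapped between the groups, and for their sum this rested on CORT2. Of 13 tested B cell genes, 0 were called in limma and 0 passed at an unadjusted p of 0.05 with the same limit on fold, and their sum was 59.5 to 80.3 TPM in Veh and 48.5 to 113 TPM in CORT, the highest in CORT2. In this sum CORT1 and CORT3, at 49.6 and 48.5 TPM, lay below all Veh libraries. Not every gene of the list did so. Blnk was at 22.7, 22.9 and 21.8 TPM in Veh and at 26.7 and 21.5 TPM in CORT1 and CORT3. It thus overlapped without CORT2 too, as did Cd72 (both named after their values were seen). Cd79a, part of the B cell receptor, was at 9.73, 11.7 and 12.6 TPM in Veh and 3.63, 15.1 and 3.71 TPM in CORT, and was called in 1 of the 6 fits with 1 library omitted. Ms4a1, the surface marker CD20, was at 3.79 TPM in CORT2 and at 0.02 to 0.24 TPM in the other libraries. Of the 5 tested germinal centre genes and the 11 tested T cell genes, 0 were called and 0 passed at an unadjusted p of 0.05 with that limit on fold. The log2 fold change was below 0 for 10 of the 11 T cell genes, against 51.5% of all genes tested. Its median was -0.27 for the T cell genes and -0.01 over all genes tested. The T cell gene Trbc2, named after its values were seen, was at 15.5, 17.96 and 18.8 TPM in Veh and 10.8, 13.4 and 11.1 TPM in CORT, below in every CORT library with a log2 fold change of -0.53. Among 8 tested genes of follicle stroma and M cells, Cxcl13, which draws B cells into follicles, was called higher, at 1.41, 0.88 and 2.44 TPM in Veh and 8.14, 31.3 and 16.1 TPM in CORT (limma adjusted p = 0.0350), with its highest value again in CORT2. This call held in 1 of the 6 fits with 1 library omitted.

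Lists of other cell types in the sample were read beside the V segments. The 12 duodenal epithelium genes summed to 32371 to 45558 TPM in Veh and 58525 to 67125 TPM in CORT, and 0 of them were called (4 were higher at an unadjusted p of 0.05 with that limit). Their median log2 fold change was 0.039. The higher sum lay in 4 genes of fat absorption, Apoa1, Apoa4, Fabp1 and Fabp2, above in every CORT library, while the epithelial genes Epcam (791 TPM in Veh, 800 TPM in CORT), Krt20 (1272 and 1316 TPM), Sis (732 and 729 TPM) and Vil1 (1153 and 1029 TPM) overlapped. Since TPM values share a fixed total, a rise of abundant transcripts lowers the others. Median-ratio scaling, which divides each library by the median ratio of its genes to their mean over libraries, used factors from 0.957 to 1.04. With it 27 members were called, all among the 28 of the main fit, and the median log2 fold change of the members was -1.58. Beyond this, the part of a fixed total in the V segment difference was not tested. The acinar genes were high in Veh2 and Veh3 only. The same libraries, Veh2 and Veh3, held the highest sums of V segments, 45867.8 and 44176.5 TPM. Veh1, whose acinar share was below that of all CORT libraries, held 33389.8 TPM of V segments. This was the lowest sum in Veh and 1.55 times the highest CORT library. Whether the acinar share and the V segment level are linked was not tested. With the acinar genes removed and each library rescaled, 28 members were called, the same 28 as before. The acinar genes held at most 3.93% of the TPM of a library, so this step could hardly change the calls. Whether the tissue taken differed between libraries in other ways was not tested.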

How the data were processed

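RNA-seq of duodenum and liver from CORT- and vehicle-treated mice was analysed, with 3 libraries per group and tissue (12 in all), grouped by the sample labels. The authors used SeqPrep and Sickle for trimming, HISAT2 for alignment, StringTie for assembly and RSEM for quantification, and deposited TPM for each gene in each library. Tool versions are not given in the sources used here, and GRCm39 is named in the submitters' processing notes. RSEM divides reads that match several transcripts among them, and V segments of plasma cells carry mutations, which bears on single segments. The authors called genes with DESeq2, which needs counts. As the tables hold TPM, log2(TPM + 1) values of genes whose mean reached 1 TPM in Veh or in CORT were fitted with limma 3.58.1 in R 4.3.3 (lmFit, eBayes with trend), treatment being the only term, with Benjamini-Hochberg adjustment over 13607 genes. The fit was tested on simulated data. Sums, shares and effective numbers were computed in Python 3.11.15 with no test.

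The members and gene lists were chosen with earlier results of these data known. Segments named were the 6 Ighv and 6 Igkv with the highest mean, every Iglv, the 12 called members with the smallest adjusted p, the leading segment of each library, and the rows on either side of 1 TPM. Outside the members, constant segments, called list genes and treatment controls were named. Others were named after their values were seen. Germline sequences came from the GENCODE M21 transcripts of GRCm38, matched by gene identifier. As the builds differ, no coordinates are given. Promoters of V segments were not analysed here. Alternatives were a replicate block, a pseudocount of 0.1, tests of all rows above 0, each library left out, median-ratio scaling, removal of acinar genes, unadjusted p and a minimum of 5 TPM.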

Additional observations from a re-analysis of the deposited data

How the results depend on the processing

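Replicate numbers of Veh and CORT libraries only share a number. The deviations of same-numbered libraries from their group means correlated at 0.054, 0.073 and -0.0039 over 13607 genes. With the replicate block, 14 members were called lower, 8 of them among the 28, and 62 genes were called in all instead of 292. With every row above 0 tested (24876), 5 members and 52 genes were called. An unadjusted p gave 108 members and 1395 genes. Leaving out 1 library gave 10 members (without Veh2, and without Veh3), 16 (without CORT1) and up to 24 (without Veh1), and 66 genes (without Veh3) to 237 (without Veh1). A pseudocount of 0.1 gave 27 members, median-ratio scaling 27, removal of acinar genes 28 and a minimum of 5 TPM 27, and 78 values of sums, evenness and counts under the alternatives stayed within the spread between replicates or, for counts, within 1.5 times, while 12 counts fell and 2 rose by more. Of the values for single named genes, 391 kept their direction and side of the threshold, 70 lost a call, 6 gained one and 15 changed sign. With 1 library left out, the log2 fold change ran from -0.76 to 0.45 for Ighg1, from -0.71 to 0.48 for Ighg2c, from -0.28 to 0.80 for Ighg3, from -0.28 to 0.95 for Ighm, from -1.07 to 0.014 for Ighv1-19, from -0.47 to 0.61 for Ighv14-3, from -0.79 to 0.70 for Igkv6-32, from -0.78 to 1.57 for Iglc1, changing sign in at least 1 of these fits for each. The causes were not tested. TPM gives no depth, so it is not known how far low segments are limited by read numbers. Exact permutation of 3 against 3 libraries cannot give a two-sided p below 0.1.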

Other observations

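In the liver of mice from the same experiment, V segment transcripts were scarce. All V rows summed to 23.9, 66.7 and 47.3 TPM in the Veh libraries and to 3.72, 12.4 and 29.5 TPM in the CORT libraries, where CORT3 lay above Veh1. The Iglv rows were at 1.31, 2.43 and 2.95 TPM in Veh and at 0.07, 0.24 and 0.87 TPM in CORT, with no overlap. Of the 187 duodenal segments, 124 were above 0 in any liver library and 3 had a mean of at least 1 TPM there. No test was run on the liver.

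In duodenum, 2 members that the annotation calls pseudogenes summed to 19.8, 8.15 and 2.67 TPM in Veh and 21.7, 8.33 and 9.21 TPM in CORT, so that they overlapped between the groups. Of all members, 26 were among the 500 genes with the highest mean TPM.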
